A study of Mus musculus with 30 samples.

Results

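The genes described here encode the T cell receptor complex and its first signalling partners: Cd3d, Cd3e, Cd3g, Cd247, Trbc2, Lck, Lat, Bcl11b and Ptpn22. These 9 genes were chosen by name as a group with one role, and their Entrez gene numbers were looked up in the 23013 gene rows of the table. All 9 were found. They were followed through Seq-Well single-cell RNA libraries, in which single cells share small wells with barcoded beads, from 8 organs of 8 male DBA1/J mice. By the study's methods the mice were 8 to 12 weeks old. The 4 mice with collagen-induced arthritis (CIA; S1, S2, S6 and S7) had received 100 µg of bovine collagen II in complete Freund's adjuvant and a booster in incomplete adjuvant on day 20, and the 4 healthy animals, numbered H3, H4, H6 and H7, had received PBS. The arthritis score was 8 in S1 and S2, 3 to 4 in S6, 3 in S7 and 0 in the healthy mice. Lymph nodes, described by the study as draining nodes, and blood came from 4 healthy and 3 CIA mice each. The other organs, which were thymus, spleen, skin, muscle, lung and joint, have 1 mouse in each state and so no replicates.

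The T cell receptor is a pair of variable chains, most often alpha and beta, that recognizes peptides held by MHC molecules but has no signalling domain of its own. It is carried by the CD3 gamma, delta and epsilon chains and by the zeta chain (Cd247), whose cytoplasmic tails hold tyrosine motifs. The kinase Lck phosphorylates these motifs after the receptor is engaged, the adaptor Lat then gathers the downstream enzymes, and the phosphatase Ptpn22 restrains Lck and its targets. Bcl11b is a transcription factor that commits precursors in the thymus to the T lineage. T cells mature in the thymus and then circulate through blood, lymph nodes and spleen. In collagen-induced arthritis, T cells help B cells to make antibodies against collagen.

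The positions given are those of GRCm38.p6. Cd3g (chr9:44969572-44980431), Cd3d (chr9:44981769-44987052) and Cd3e (chr9:44998735-45009663) lie side by side on chromosome 9, and the starts of Cd3g and Cd3d face away from each other over 1337 bases. Cd247 is at chr1:165779952-165871153, Lck at chr4:129548344-129573641, Lat at chr7:126363827-126369705, Bcl11b at chr12:107910403-108004145 and Ptpn22 at chr3:103856575-103912252. Trbc2, the second constant segment of the beta chain, is at chr6:41546730-41548181. Its coding sequence is nearly the same as that of Trbc1, so reads could be split between the 2 genes in a way that the table cannot show, and the Trbc2 level is uncertain for that reason.

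The levels of the 3 CD3 chains, Lck and Lat followed each other across the organs, with Pearson correlations of 0.94 to 0.98 between pairs over the 26 profiles, so the 250 bases upstream of their RefSeq starts are shown. Capitals mark an E-box (CACCTG, or CAGGTG on the other strand), the letters that E proteins bind, and an ETS core (AGGAAG or CTTCCT). Lck has 2 starts, and its windows are named far and near by their distance from the coding part of the gene.
Cd3g, chr9:44980432-44980681, minus strand: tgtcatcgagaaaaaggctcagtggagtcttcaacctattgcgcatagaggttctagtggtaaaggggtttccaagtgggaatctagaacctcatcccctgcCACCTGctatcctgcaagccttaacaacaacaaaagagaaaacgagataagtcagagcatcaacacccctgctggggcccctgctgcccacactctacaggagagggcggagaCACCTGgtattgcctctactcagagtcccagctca
Cd3d, chr9:44981536-44981785, plus strand: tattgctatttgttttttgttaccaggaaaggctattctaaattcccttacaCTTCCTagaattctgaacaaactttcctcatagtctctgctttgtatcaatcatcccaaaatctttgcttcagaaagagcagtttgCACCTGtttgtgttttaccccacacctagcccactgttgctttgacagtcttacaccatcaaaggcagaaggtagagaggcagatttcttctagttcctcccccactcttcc
Cd3e, chr9:45009612-45009861, minus strand: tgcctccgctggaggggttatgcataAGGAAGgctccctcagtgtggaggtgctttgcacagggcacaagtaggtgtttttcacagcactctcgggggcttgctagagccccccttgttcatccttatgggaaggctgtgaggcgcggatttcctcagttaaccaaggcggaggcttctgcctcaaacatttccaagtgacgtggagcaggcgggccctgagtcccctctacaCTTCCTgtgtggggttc
Lck far, chr4:129573642-129573891, minus strand: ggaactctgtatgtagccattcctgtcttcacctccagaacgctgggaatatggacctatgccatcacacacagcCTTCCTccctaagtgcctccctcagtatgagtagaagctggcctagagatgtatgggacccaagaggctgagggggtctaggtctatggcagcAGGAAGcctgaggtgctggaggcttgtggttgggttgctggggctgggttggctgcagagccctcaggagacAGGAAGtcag
Lck near, chr4:129558373-129558622, minus strand: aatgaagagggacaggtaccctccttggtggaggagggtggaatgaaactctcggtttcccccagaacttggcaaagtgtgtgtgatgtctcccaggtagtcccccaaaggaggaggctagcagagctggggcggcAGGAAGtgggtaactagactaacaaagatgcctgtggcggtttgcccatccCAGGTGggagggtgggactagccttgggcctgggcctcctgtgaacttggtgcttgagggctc
Lat, chr7:126369569-126369818, minus strand: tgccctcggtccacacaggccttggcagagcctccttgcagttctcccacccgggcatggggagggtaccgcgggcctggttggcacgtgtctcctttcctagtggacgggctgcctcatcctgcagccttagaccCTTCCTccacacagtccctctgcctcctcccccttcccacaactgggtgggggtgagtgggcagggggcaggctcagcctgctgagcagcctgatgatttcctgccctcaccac

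Of the 9 genes, 8 had a window in the RefSeq table and Trbc2 had none. The E-box letters were found upstream of Cd3d, Cd3g, Lck and Cd247, 4 of 8 genes, and in 19.4% of all 27025 genes with a window. An ETS core was found upstream of 6 of 8, all but Cd3g and Bcl11b, against 32.3% of all genes. The other letters searched on both strands were less frequent among the members: a GATA site (AGATAA) upstream of Cd3g against 11.4% of all genes, a TCF/LEF site (CTTTGA) upstream of Bcl11b and Cd3d against 15.8%, and a RUNX site (TGTGGT) upstream of Lck and Ptpn22 against 15.9%. All 250 bases of the Cd247 window lie in exons of Gm16565, within the span given for Cd247, and 188 bases of the Bcl11b window lie in exons of Bcl11b. A match describes the letters only. None of the strings contains another, although neighbouring matches can share bases, and a gene with 2 windows counted once.

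The 30 libraries held 27 to 934 barcodes and 217494 to 7886790 units, the whole-number sums of the deposited, smoothed signal. Libraries of 1 mouse and organ were added up, which gave 26 profiles, and gene values are given as units in 1000000 of the profile (UPM). In 19 libraries under 30% of the listed genes had 1 as their highest value in any barcode, against more in the other 11, so rare genes may be absent from the former and a gene at 0 is described as listed at 0. The titles end in CIA or 2CIA, the only sign of a library batch, and in lung, muscle, skin, spleen and thymus this suffix cannot be told apart from the state. The libraries of CIA lung and healthy spleen shared 13 barcode sequences. In such sums, fewer T cells and less RNA per T cell cannot be told apart. Among the labelled organs, marker genes of the tissue itself were looked at for thymus and skin only. Rag1, Rag2, Dntt and Ptcra were above 0 in thymus and at 0 in every lymph node and blood profile. All 6 keratinocyte markers were above 0 in skin of both mice, where they summed to 2084 and 1256 UPM. The same 6 were also above 0 in CIA joint, and their sum was 125 UPM in healthy and 169 UPM in CIA joint, against 0 to 112 UPM in the other organs.

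Thymus and lymph node held the highest levels of the receptor genes. The sum of the 9 genes was 9655 UPM in healthy and 8009 UPM in CIA thymus, and 2049 to 4220.2 UPM in the 7 lymph node profiles. Spleen had 802 UPM in the healthy and 671 UPM in the CIA mouse, and blood ran from 206 to 1545 UPM. Muscle of the healthy mouse had 882 UPM, above spleen, and muscle of the CIA mouse 40.2 UPM. The remaining organs had 25.9 to 151 UPM. The healthy muscle profile also held 92783 UPM of myeloid, 27928.5 UPM of red cell and 2286 UPM of B cell markers. All 9 genes were above 0 in every lymph node and thymus profile, whereas joint of the healthy mouse listed Cd3d alone.

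**Figure D1:**
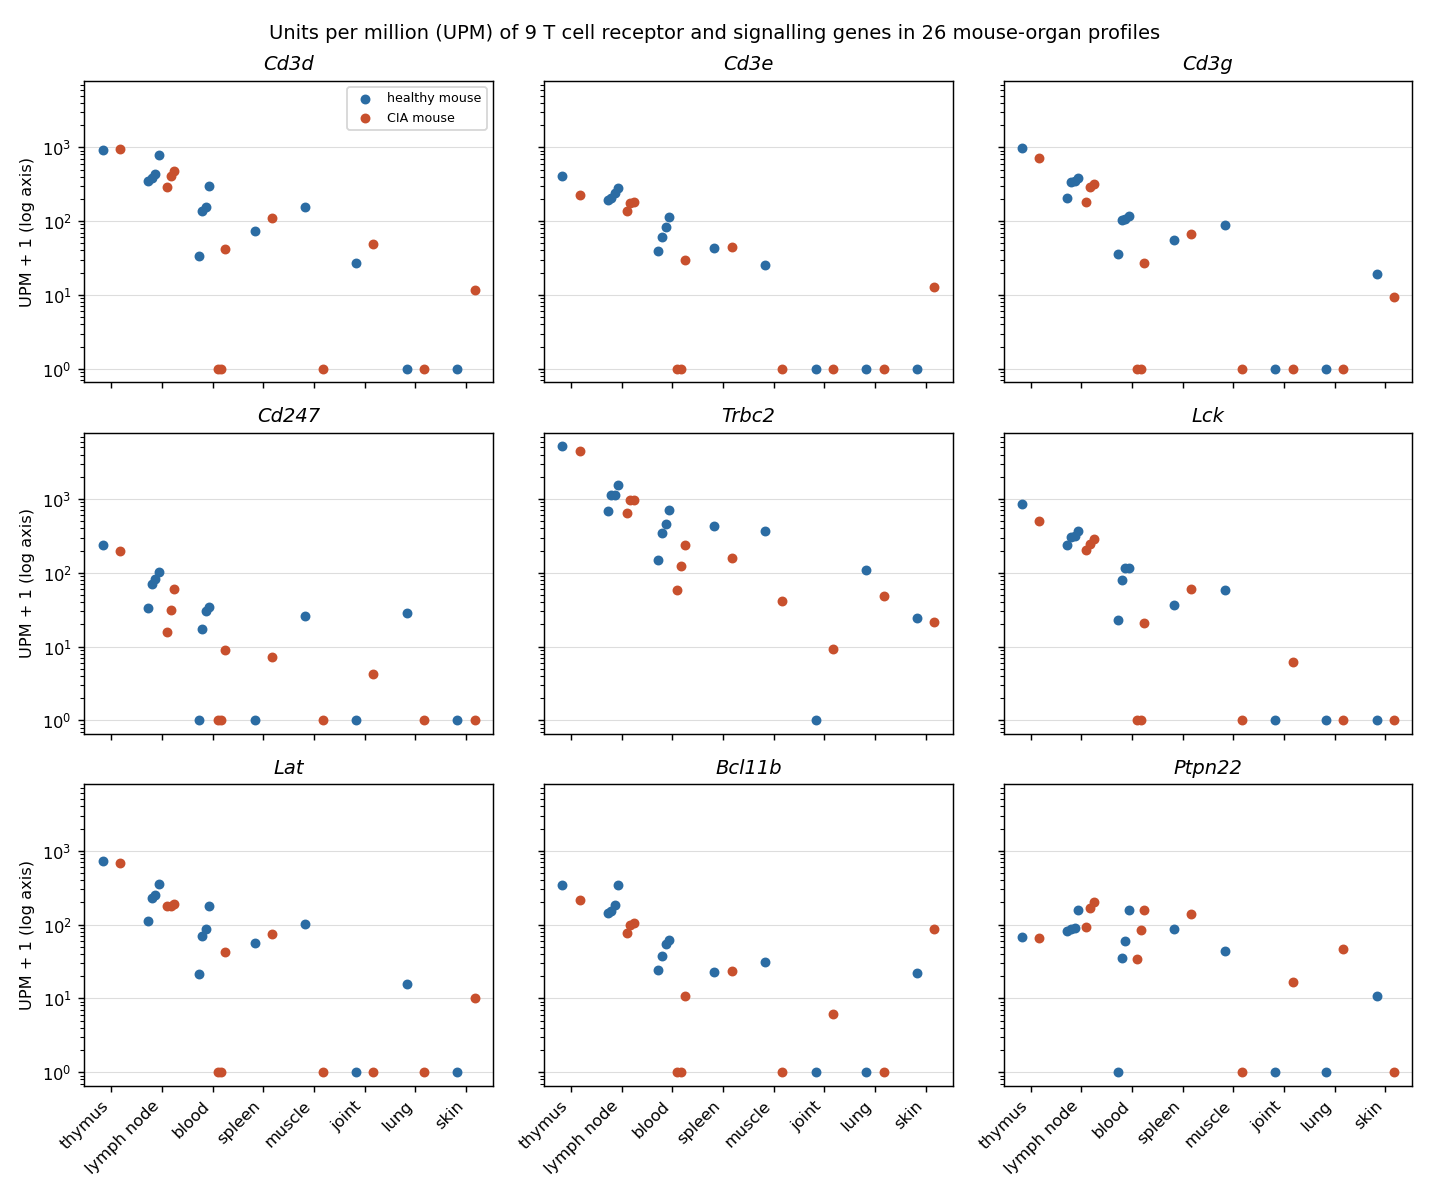
Level of each of the 9 genes in the 26 mouse-organ profiles, one panel per gene, on a log axis of UPM + 1 so that genes listed at 0 sit at 1; each point is 1 mouse, blue healthy and red CIA. In 8 of the 9 panels spleen and most blood profiles lie below lymph node and thymus. Ptpn22 instead lies at 64.6 to 67.3 UPM in thymus, 80.7 to 203 UPM in lymph node and 86.1 to 136 UPM in spleen.

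Among the CD3 chains, Cd3d, the delta chain, had 435, 388, 794 and 353 UPM in the lymph nodes of H3, H4, H6 and H7, against 406, 287 and 471 UPM in those of S1, S2 and S7. Its thymus levels were 916 UPM in H6 and 941 UPM in S1. The healthy blood profiles had 299 UPM (H3), 33.0 (H4), 152 (H6) and 137 (H7), S2 had 40.4, and S6 and S7 listed it at 0. Each lymph node profile but that of S2 thus exceeded every blood profile. Spleen had 72.3 UPM in H6 and 110.1 UPM in S1.

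Cd3e, the epsilon chain that pairs with the delta and gamma chains, was at 242, 208, 281 and 192 UPM in lymph node of H3, H4, H6 and H7, and at 178, 135 and 175 UPM in S1, S2 and S7. In thymus it had 403 UPM in H6 and 227 UPM in S1, a range that takes in the lymph nodes H3 and H6. Healthy blood had 59.8, 38.3, 112 and 81.1 UPM in the same order of mice, and S2 had 29.1 UPM. The gamma chain, Cd3g, was at 346, 338, 386 and 203 UPM in the healthy and at 179.9, 287 and 319 UPM in the CIA lymph nodes. Its thymus levels of 964 UPM in H6 and 723 UPM in S1 were above all of these. Healthy blood had 115, 35.1, 104 and 107 UPM and S2 had 26.4 UPM, and in S6 and S7 it was listed at 0, as was Cd3e.

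The zeta chain gene Cd247, which NK cells also use, was at 100.1, 82.3, 69.0 and 32.6 UPM in H3, H4, H6 and H7, and at 30.5, 14.7 and 58.8 UPM in S1, S2 and S7. The highest lymph node was H3 and the lowest S2. Thymus had 234 UPM in H6 and 196 UPM in S1, above every lymph node. In blood it was at 16.2 UPM in H4, 29.0 in H6, 33.2 in H7 and 8.09 in S2, and listed at 0 in H3, S6 and S7. Spleen had 0 UPM in H6 and 6.26 UPM in S1.

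Trbc2 was at 1144, 1119, 1540.0 and 684 UPM in the healthy lymph nodes, in the order H3, H4, H6 and H7, and at 645, 970.3 and 984 UPM in S1, S2 and S7. Thymus stood far above, with 5157 UPM in H6 and 4448 UPM in S1. Blood had 717, 149, 346 and 453 UPM in the healthy mice, and 56.6, 237 and 123 UPM in S2, S6 and S7. Trbc2 was thus one of the 2 members that the blood profiles of S6 and S7 still held. It was also the single member above 0 in both mice in lung, muscle and skin alike.

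The Lck kinase was at 303, 314, 372 and 239.9 UPM in lymph node of H3, H4, H6 and H7, at 206, 244 and 285 UPM in S1, S2 and S7, and at 845 and 506 UPM in thymus of H6 and S1. Its healthy blood levels were 115, 21.7, 77.7 and 114 UPM, and S2 had 20.0 UPM. For Lat, the membrane adaptor also found in platelets and mast cells, lymph node had 248, 226, 358 and 111 UPM in the healthy and 176, 175 and 192 UPM in the CIA mice, and thymus 730.2 UPM in H6 and 688 UPM in S1. In healthy blood Lat had 179, 20.1, 68.4 and 85.7 UPM, and in S2 41.0 UPM. Lck and Lat were listed at 0 in blood of S6 and S7, in step with the CD3 chains.

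Bcl11b was at 153, 186, 339 and 144 UPM in lymph node of H3, H4, H6 and H7, and at 96.1, 76.3 and 105 UPM in S1, S2 and S7. All 3 CIA lymph nodes were below all 4 healthy ones. Thymus had 339 UPM in H6 and 216 UPM in S1, so that the healthy thymus and lymph node of H6 were level. Blood had 59.8, 23.0, 36.5 and 53.3 UPM in the healthy mice and 9.71 UPM in S2, and Bcl11b was listed at 0 in S6 and S7. Outside the lymphoid organs it was highest in skin of the CIA mouse, at 85.9 UPM, against 21.4 UPM in skin of the healthy mouse. Keratinocyte markers summed to 1256 UPM in skin of the CIA mouse and 2084 UPM in the healthy one, and fibroblast markers to 16760 and 4318 UPM. Their part in the Bcl11b level was not tested.

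Ptpn22, which B cells and myeloid cells also express, did not follow the other members. Its lymph node levels were 86.6, 158, 80.7 and 89.6 UPM in H3, H4, H6 and H7, and 165, 203 and 91.0 UPM in S1, S2 and S7. In thymus it had 67.3 UPM in H6 and 64.6 UPM in S1, below all 7 lymph nodes as 20.9% of genes were, and in spleen 86.1 UPM in H6 and 136 UPM in S1, within their range. Blood had 34.6, 155 and 58.9 UPM in H4, H6 and H7, 32.9, 159 and 82.3 UPM in S2, S6 and S7, and a listing at 0 in H3.

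The comparison of lymph node with blood asked how far the receptor genes differ between a lymphoid organ and the circulation. In a limma fit of log2(UPM + 10) over blood, lymph node, spleen and thymus with a term for the state, 8 of the 9 genes were higher in lymph node, where 12.9% of the 5135 genes tested, or 660, were called higher. The number over all genes was 130 without H4, 158 without S2, 314 without S1 and 240 with the median-of-ratios scaling. It rose to 1260 with each library as its own sample and to 1183 with the suffix as a term. Blood profiles of at least 100 barcodes gave 1126, and the fit without S6 gave 923. In each of these fits 7 or 8 members were called. The differences were 2.98 for Cd3d (SE 0.52), 2.89 for Lck (SE 0.45), 2.78 for Cd3g (SE 0.45), 2.44 for Bcl11b (SE 0.42), 2.39 for Cd3e (SE 0.43), 2.34 for Lat (SE 0.49), 2.05 for Trbc2 (SE 0.35) and 1.65 for Cd247 (SE 0.47) on the log2 scale. The median of all genes was 0.58, and it was 0.40 and 0.21 when the profiles were scaled by a trimmed mean or by the median of ratios. Cd247 had a mean of 12.4 UPM in blood, under the filter of 25 UPM, and passed it through the organs where it is high, so that the filter favoured a higher value in lymph node and nothing is read from its part in the count. Lck, with an adjusted p of 0.000672, ranked 5 among all genes by p. Ptpn22, at 1.05 (SE 0.49), did not pass (adjusted p = 0.129).

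Within the 6 mice that had both organs, lymph node exceeded blood in 6 of 6 mice for 7 genes, and in 5 of 6 for Cd247 and Ptpn22, with the exceptions of H7 and H6. The share of all genes that did so was not counted, and their median in the fit was 0.58, so nothing is read from these numbers. With the mouse as a block, Cd247 no longer passed (log2 difference 1.49, adjusted p = 0.0591) and the other 7 did. The call for Cd247 was also lost with the trimmed-mean (adjusted p = 0.0557) and median-of-ratios scaling (0.107), with a pseudocount of 1 (0.0537), with no filter (0.0509), with blood profiles of at least 100 barcodes (1.07, adjusted p = 0.0625), and without H3 (0.0629), H4 (0.0781), S1 (0.0507) or S7 (0.0638). The levels of Cd3e, Cd3g, Lck and Bcl11b did not overlap between the 7 lymph node and the 7 blood profiles, 4 of 9 genes where 1.56% of all genes were higher without overlap. In the healthy mice alone none of the 9 passed, with 2 genes called among 5015 and 954 at an unadjusted p under 0.05. There Bcl11b differed by 2.00 (SE 0.48, adjusted p = 0.093) and Lck by 1.95 (SE 0.48, adjusted p = 0.093). Haemoglobin and other red cell markers took 35781 to 516348 UPM of the blood profiles and 95 to 140470 UPM of the lymph nodes. Myeloid markers summed to 2731 to 76220 UPM in blood and 352 to 3689 UPM in lymph node, with Lyz2 at -3.85, S100a9 at -4.28 and S100a8 at -3.55, all called lower in lymph node. The part of either in the differences was not tested beyond the scalings above.

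**Figure D2:**
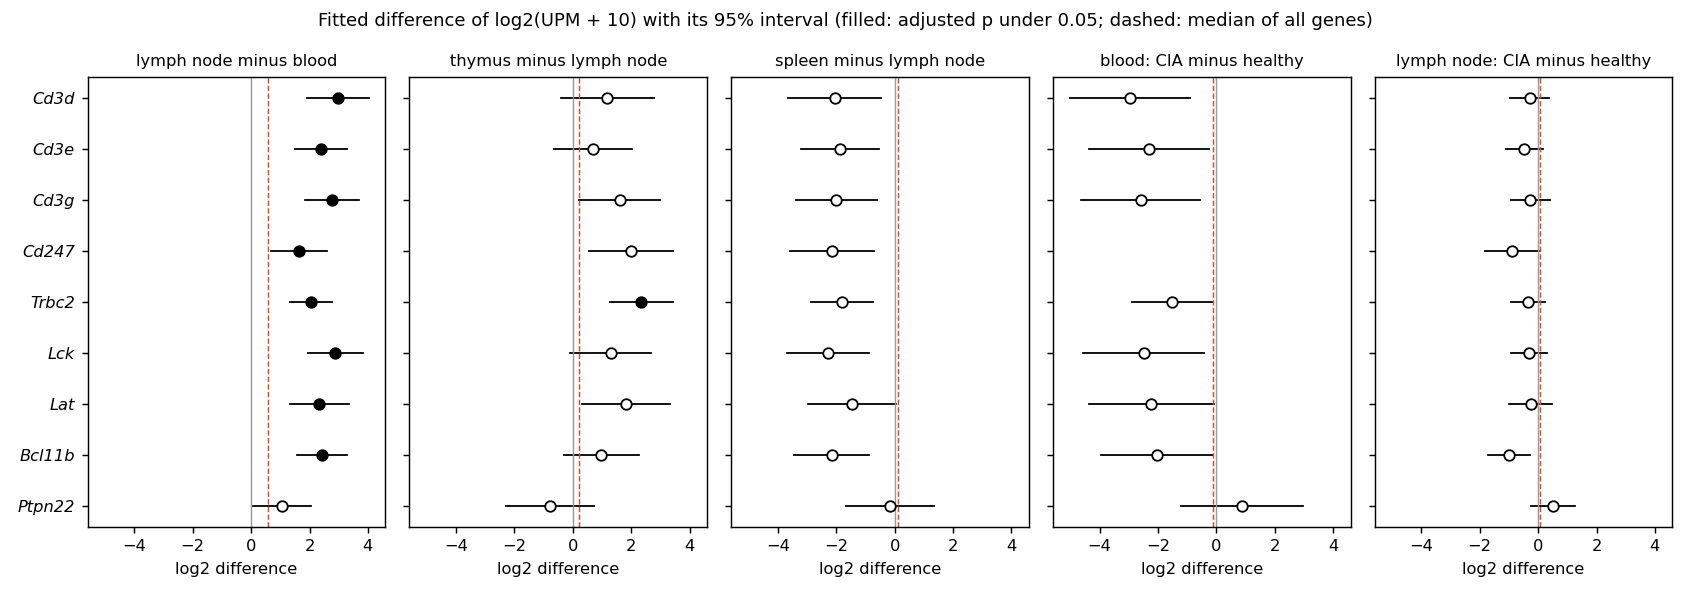
Fitted difference of log2(UPM + 10) for each gene in 5 comparisons, with its 95% interval; filled points have an adjusted p under 0.05, the grey line is 0 and the dashed line the median of all genes. The 8 filled points of lymph node minus blood lie between 1.65 and 2.98, Trbc2 at 2.35 is the one filled point of thymus minus lymph node, and Cd247 has no point in blood because it was under the filter.

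Thymus, where immature T cells pass through receptor assembly, was set against lymph node with 1 healthy and 1 CIA thymus. Trbc2 was higher by 2.35 (SE 0.52, adjusted p = 0.00439) in a comparison that called 3.99% of genes higher. The other differences were not called: 1.99 for Cd247 (SE 0.70, adjusted p = 0.0611), 1.83 for Lat, 1.60 for Cd3g, 1.29 for Lck, 1.19 for Cd3d, 0.98 for Bcl11b and 0.68 for Cd3e, with Ptpn22 at -0.79. The levels of Cd3d, Cd3g, Cd247, Trbc2, Lck and Lat in both thymus profiles were above all 7 lymph nodes, 6 of 9 genes where 24.9% of all genes were so. With 1 thymus left, Trbc2 differed by 2.71 without H6 (adjusted p = 0.122) and by 1.99 without S1 (adjusted p = 0.167). A fit of these 2 organs alone called 7 of the 9 genes and 38.4% of all genes. The median of all genes was 0.21, and 0.11 or 0.57 with the other scalings. The 8 markers listed for immature T cells summed to 2406 and 1559 UPM in thymus and to 147 to 330 UPM in lymph node. Rag1, Rag2, Dntt and Ptcra were at 0 in every lymph node, and Cd8b1, a chain of the CD8 coreceptor, gave 53.1 to 239 UPM there. The lymph node sum is thus not read as a sign of immature cells. Of 10 B cell markers, 8 were at 0 in thymus, Ms4a1 and Pax5 among them. Their part in the differences was not tested.

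Spleen against lymph node gave lower values for all 9 genes and no call among them, where 3.31% of genes were called, 170 in all and 53 with the mouse as a block. The differences were -2.28 for Lck (SE 0.68, adjusted p = 0.0561), -2.15 for Bcl11b (SE 0.63, adjusted p = 0.052), -2.15 for Cd247, -2.05 for Cd3d, -1.99 for Cd3g, -1.88 for Cd3e, -1.80 for Trbc2 (SE 0.52, adjusted p = 0.052) and -1.45 for Lat. At an unadjusted p under 0.05, 7 of the 9 passed, as did 17.4% of all genes. For 8 genes both spleen profiles lay under all 7 lymph nodes, as 15.2% of all genes did, and Ptpn22 differed by -0.15 (SE 0.73), or by 0.16 with the median-of-ratios scaling. Cd247 and Bcl11b had means of 3.13 and 22.0 UPM in spleen and passed the filter of 25 UPM through the organs where they are high, so that the filter favoured lower values in spleen for both and nothing is read from their part in these counts. The median of all genes was 0.12, and 0.17 or 0.42 with the other scalings. A fit of the 2 organs alone called 8 of the 9 and 16.6% of all genes. The spleen of the CIA mouse held 92713 UPM of myeloid and 91025 UPM of red cell markers, against 5493 and 519 UPM in the healthy spleen, and their part in the differences was not tested.

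The make-up of the receptor set differed between organs as well as its sum. Trbc2 made up 53.4% of the 9-gene sum in healthy and 55.5% in CIA thymus, and 31.0% to 40.6% in lymph node, with no overlap. It also made up 54.0% in healthy and 23.2% in CIA spleen, and 59.9% and 60.0% in blood of S6 and S7. Ptpn22 made up 0.70% and 0.81% in thymus, 1.91% to 8.48% in lymph node, and 10.7% and 20.3% in spleen, so these 3 organs did not overlap in its share. Bcl11b had 5.00% to 8.02% of the sum in the healthy and 3.19% to 4.62% in the CIA lymph nodes. Lck, in contrast, kept a share of 8.82% to 11.7% in all 7 lymph nodes. Shares are compared here for 1 gene across profiles.

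**Figure D3:**
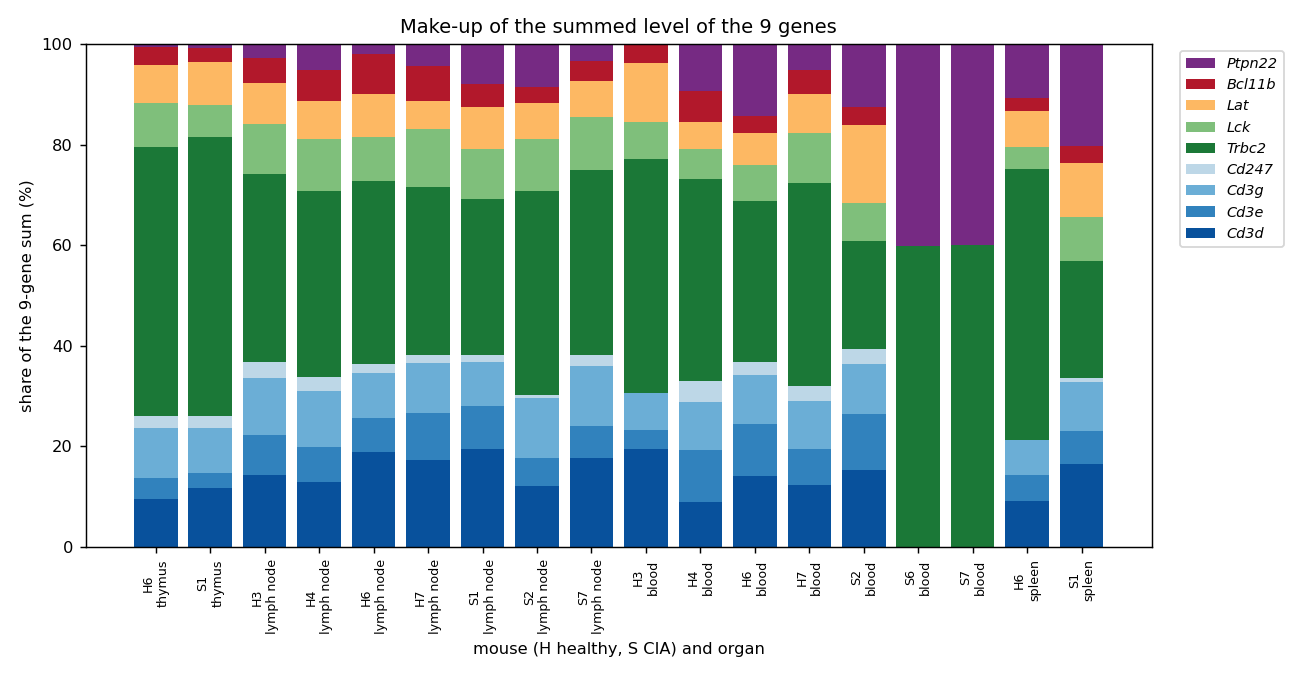
Share of each gene in the summed UPM of the 9 genes, in percent, for the thymus, lymph node, blood and spleen profiles; each bar is 1 mouse and organ, H healthy and S CIA. The green Trbc2 segment takes 53.4% and 55.5% in thymus, and in blood of S6 and S7 the bar holds Trbc2 and Ptpn22 alone.

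In lymph node, CIA and healthy mice were compared to ask whether the receptor genes differ in draining nodes in arthritis. No member was called by limma among 5081 genes, where 0.0197% were called. Bcl11b had the largest difference, -0.999 (SE 0.35, 95% interval -1.73 to -0.27, adjusted p = 0.999), with a mean of 92.5 ± 14.8 UPM (SD, n = 3) in CIA against 205 ± 90.6 UPM (SD, n = 4) in healthy mice. It was the one member with an unadjusted p under 0.05, a threshold that 3.96% of all genes met. Cd247 differed by -0.90 (SE 0.45, adjusted p = 0.999), with 34.6 ± 22.3 UPM (SD, n = 3) against 71.0 ± 28.6 UPM (SD, n = 4). Ptpn22 was the single member with a higher mean in CIA, at 0.50 (SE 0.36, adjusted p = 0.999).

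The 3 CD3 chains, Lck, Lat and Trbc2 differed by -0.26 to -0.48 between CIA and healthy lymph node, with 95% intervals that run from -1.12 for Cd3e to 0.48 for Lat. Cd3e and Bcl11b were lower in every CIA than in every healthy lymph node, 2 of 9 genes where 2.56% of all genes were lower without overlap. Among libraries with the suffix 2CIA alone, Bcl11b differed by -0.79 (SE 0.41, adjusted p = 0.826) and Cd247 by -1.42 (SE 0.55, adjusted p = 0.826). The median of all genes was 0.05 and that of the members -0.31, or -0.17 without H6 and -0.55 without H7. Without H6, Cd3d, Cd3g and Lat differed by -0.04, -0.17 and -0.03, and without S1 Cd3g differed by -0.03. Red cell markers summed to 204 to 646 UPM in the CIA and 95 to 140470 UPM in the healthy nodes, and B cell markers to 1491 to 2629 and 1387 to 2718 UPM. The part of either in the differences was not tested.

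For Cd3d, Cd3g and Lat, libraries of the same lymph node differed by more than the states did, in both mice that allow the comparison. H4 and S7 each had a lymph node library of either suffix. Cd3d was at 559 UPM in the 2CIA and 283 UPM in the CIA library of H4, and at 628 and 247 UPM in those of S7. Cd3g was at 388 and 308 UPM in H4 and at 365 and 253 UPM in S7, in the same order. For Lat the 2CIA library had 363 UPM and the CIA library 143 UPM in H4, against 252 and 105 UPM in S7. Of the 9 genes, 7 were higher in the 2CIA library of H4 and 9 in that of S7, the exceptions being Trbc2 and Ptpn22 in H4. Bcl11b was at 197 UPM in the 2CIA and 179 UPM in the CIA library of H4, and at 119.9 and 84.1 UPM in those of S7. In blood of H4, 4 members were higher in the 2CIA and 5 in the CIA library, and in joint of S1 6 and 0. The share of all genes higher in either library was not counted, so nothing is read from these numbers.

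**Figure D4:**
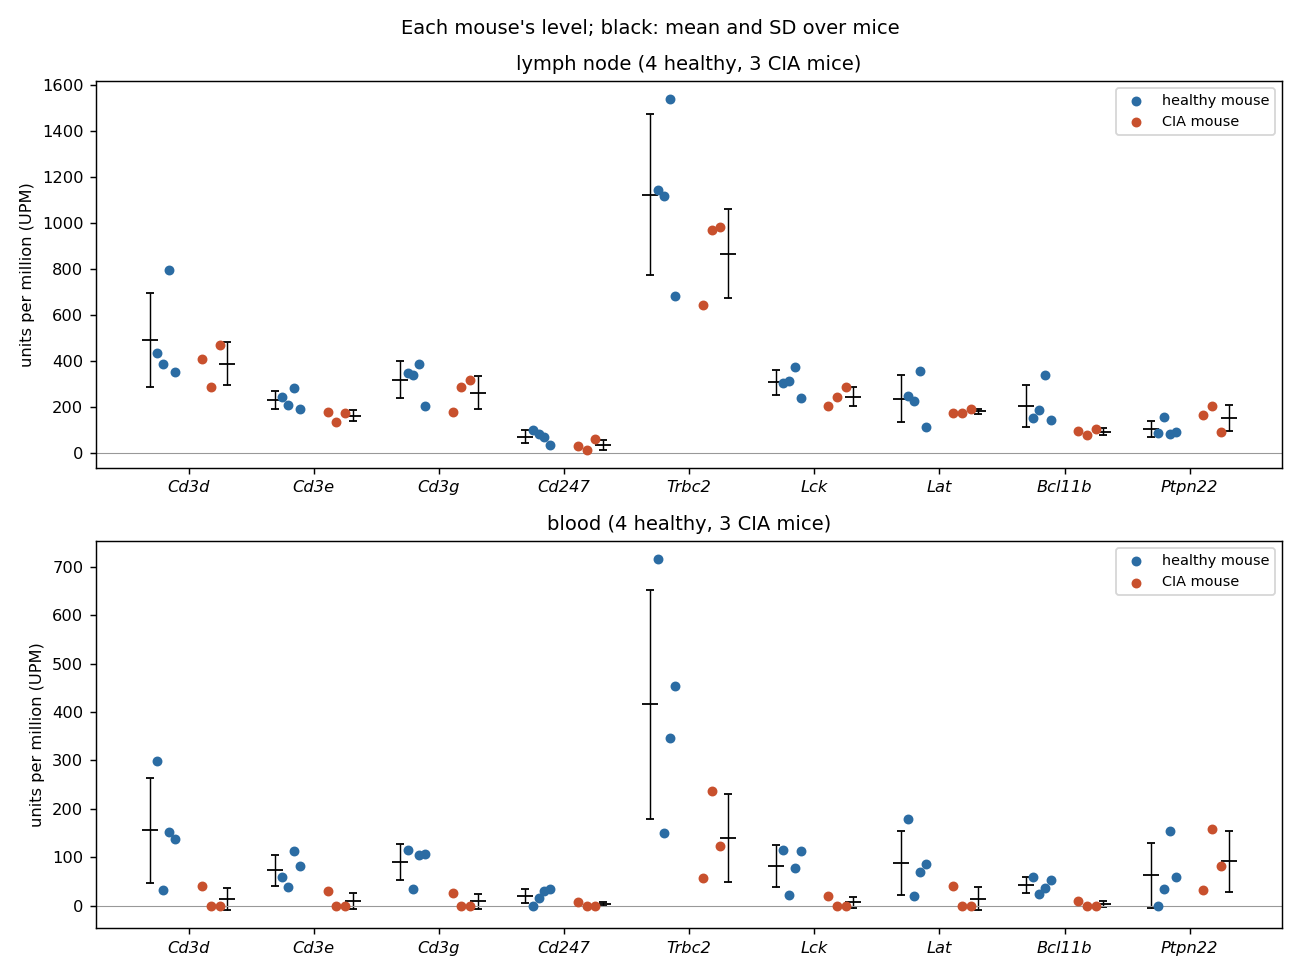
Level of each gene in UPM in lymph node (top) and blood (bottom), both axes linear; each point is 1 mouse, blue healthy and red CIA, and the black marks are the mean and SD over mice. In lymph node the 3 CIA mice lie below the 4 healthy mice for Bcl11b and Cd3e, and in blood S6 and S7 lie at 0 for 7 of the 9 genes.

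In blood the means of 8 of the 9 genes, all but Ptpn22, were lower in CIA than in healthy mice, but the test called none. The limma fit covered 4416 genes and called 0.362% of them, all higher in CIA. Of the 9 members 8 passed the filter of 25 UPM. Of these, Cd3d, Cd3e, Cd3g, Lck, Lat and Bcl11b passed through the healthy mice alone, since their CIA means were 3.24 to 13.7 UPM, so that the filter favoured lower values in CIA. An unadjusted p under 0.05 was given to 7 members and to 9.13% of all genes, and nothing is read from this count. The differences were -2.96 for Cd3d (SE 1.00, adjusted p = 0.48), -2.60 for Cd3g (SE 0.99), -2.49 for Lck (SE 1.00), -2.31 for Cd3e (SE 0.99), -2.23 for Lat (SE 1.04), -2.02 for Bcl11b (SE 0.93) and -1.52 for Trbc2 (SE 0.65), with adjusted p up to 0.538. Ptpn22 was at 0.88 (SE 1.01, adjusted p = 0.842). Cd247, under the filter, differed by -1.08 (two-sided exact permutation p = 0.171 over 35 splits).

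For Cd3e, Cd3g, Lck and Bcl11b no CIA blood profile reached the lowest healthy one, and 6% of all genes were lower without overlap. These 4 genes are among those that passed the filter through the healthy mice alone, and nothing is read from their number. These values rest on thin profiles. S6 had 62 barcodes and 2705 genes above 0, S7 97 barcodes and 3554 genes, and both belong to the 19 libraries that may lack rare genes. H3, which had the highest blood values of Cd3d, Cd3g, Trbc2, Lck, Lat and Bcl11b, had 27 barcodes and 7 distinct profiles. With blood profiles of at least 100 barcodes, which leaves S2 alone, assumed to vary like the healthy mice, against H4, H6 and H7, Cd3d differed by -0.9998 (SE 0.83), Cd3g by -1.21 (SE 0.80), Lck by -1.23 (SE 0.85), Bcl11b by -1.22 (SE 0.91) and Lat by -0.26 (SE 0.82), none called. Trbc2 was then at -2.16 (SE 0.76, adjusted p = 0.212) and Ptpn22 at -0.89 (SE 0.82), the reverse of its sign with all profiles. Within the suffix 2CIA, with H3 and part of H4 as the healthy side, Cd3d differed by -2.68 (SE 1.76), Cd3g by -2.59 (SE 1.78), Lck by -2.59 (SE 1.78), Trbc2 by -1.32 (SE 0.96) and Ptpn22 by 3.13 (SE 1.75), none called. The median of all genes was -0.10 with all profiles, and -0.55 or -0.37 with the trimmed-mean or median-of-ratios scaling.

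By the study's methods the blood cells were mononuclear cells from a density gradient, a step that is meant to leave out granulocytes and most red cells. Markers of other blood cells moved with the same mice. The 8 myeloid markers summed to 2731 to 6206 UPM in the healthy and 15002 to 76220 UPM in the CIA blood profiles, with no overlap, and 4 of the 8 were called higher: Retnlg by 4.67 (SE 0.83, adjusted p = 0.0106), S100a8 by 3.84 (SE 0.71, adjusted p = 0.0167), S100a9 by 3.00 and Lyz2 by 2.71, genes of neutrophils and monocytes. No gene at all was called in blood without S2 or with no mean-variance trend, and 2 were without H4. The 10 B cell markers summed to 1168 to 5190 UPM in healthy and 629 to 3304 UPM in CIA blood, the 9 NK markers to 152 to 1186 and 298 to 1218 UPM, and the 5 red cell markers to 35781 to 516348 and 58511 to 378628 UPM. Their part in the lower receptor genes was not tested. Of the 9 NK markers, 7 were above 0 in CIA blood, and Ncr1 and Klrb1c were at 0. Tyrobp, one of the 9, was the only one above 0 in healthy lung, where the sum was 666 UPM, so the sum is no measure of NK cells. All CIA blood libraries carry the suffix 2CIA, against H3 and 1 of the 2 libraries of H4 among the healthy.

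Whether the difference between the states was itself unlike in the 2 organs was tested as an interaction over blood and lymph node. No member was called among 4810 genes, of which 0 were called and 7.82% had an unadjusted p under 0.05. Cd3d differed by 2.67 (SE 0.93, adjusted p = 0.476), Cd3g by 2.32 (SE 0.82), Lck by 2.18 (SE 0.82) and Cd3e by 1.83 (SE 0.82), the 4 members under that threshold, with the lymph node value the less negative. In blood these 4 members passed the filter through the healthy mice alone and were listed at 0 in S6 and S7, so nothing is read from their number. With blood profiles of at least 100 barcodes, which leaves out H3, S6 and S7, Cd3d differed by 0.71 (SE 0.81), Cd3g by 0.94 (SE 0.74), Lck by 0.92 (SE 0.76) and Cd3e by 0.58 (SE 0.68), none called, and the median of the members was 0.71 against 1.83 with all profiles. Bcl11b, the member with the largest lymph node difference, was at 1.03 (SE 0.81, 95% interval -0.65 to 2.70).

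In muscle the receptor genes differed widely between the 1 healthy and the 1 CIA mouse. Cd3d was at 154 UPM in H6 and 0 in S1, Lat at 99.3 UPM and 0, Cd3g at 86.7 UPM and 0, Lck at 57.3 UPM and 0, and Trbc2 at 363 and 40.2 UPM. These 5 members were more than 2-fold lower in the CIA mouse on the scale of UPM + 10, as were 18.1% of genes, but the 4 at 0 in S1 passed the filter through H6 alone and could not have come out higher. The S1 muscle had 54 barcodes against 421 in H6. Myeloid markers summed to 92783 UPM in H6 and 26512 UPM in S1 muscle, B cell markers to 2286 and 300.2 UPM, and collagen and other fibroblast genes to 496 and 11716 UPM. Suffix and state cannot be told apart here.

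Of the other organs with 1 mouse per state, lung, skin and joint had 1 member each that passed the filter, spleen had 7 and thymus 9. Trbc2 in lung, the beta chain segment, was at 109 UPM in H6 and 47.4 UPM in S1, a fall past 2-fold that 22.7% of genes shared, with all 3 CD3 genes listed at 0 in both mice. In spleen Trbc2 was at 433 and 156 UPM, where 23.3% of genes fell as far, and the other 6 members that passed stayed within 2-fold. Skin held Bcl11b at 21.4 UPM in H6 and 85.9 UPM in S1, a rise past 2-fold that 12.3% of genes shared, but it passed the filter through S1 alone and could only have come out higher. In thymus all 9 passed and none differed by 2-fold, where 10.4% of genes were higher and 6.61% lower in CIA, the farthest being Cd3e with 403 and 227 UPM and Lck with 845 and 506 UPM. In joint Cd3d alone passed, at 25.9 UPM in H3 and 48.4 UPM in S1, within 2-fold where 5.64% of genes were higher and 23.1% lower.

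The members were also followed through the 4590 distinct profiles among the 8282 barcodes. Because the signal was smoothed over neighbours, these shares describe groups of cells and not single cells. At least 1 CD3 gene was above 0 in 100% of thymus, 98.4% of healthy and 97.3% of CIA lymph node, 71.4% of healthy and 29.4% of CIA blood, 51.0% of healthy and 81.5% of CIA spleen, 18.7% of healthy and 33.6% of CIA joint, 32.4% of healthy and 17.7% of CIA skin, 75.5% of healthy muscle, and 0% of CIA muscle and lung profiles. All 37 CD3 profiles of CIA blood were among the 71 of S2, with none among the 22 of S6 and the 33 of S7, and H7 gave 596 of the 999 healthy blood profiles. By library, Bcl11b was above 0 in 46.0% to 84.6% of the profiles of healthy and 34.7% to 66.8% of those of CIA lymph node, and Cd247 in 30.6% to 73.1% and 12.03% to 43.0%, so the states overlapped for both genes.

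Some members appeared where no CD3 gene did. In skin of the CIA mouse Bcl11b was above 0 in 52.9% of the profiles without CD3 and in 18.2% of those with it, whereas in healthy skin it was above 0 in 13.04% of those without CD3 and in 54.5% of those with it. Ptpn22 was above 0 in 48.3% of CIA blood profiles without CD3 and 37.8% of those with it, and in 53.6% and 70.0% in CIA spleen. Trbc2 was present in 28.1% of the CIA blood profiles without CD3 and in 37.9% of healthy lung profiles. In blood of S6, 68.2% of the 22 distinct profiles held Ptpn22 and 54.5% Trbc2, and in S7 54.5% and 15.2% of 33.

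Across the 26 profiles the level of Lck had a Pearson correlation of 0.99 with the mean of the other 8 members, Cd3g 0.98, Cd3e 0.97, Lat 0.96, Cd3d 0.93, Trbc2 0.91, Bcl11b 0.89, Cd247 0.83 and Ptpn22 0.54. The profiles share mice and libraries, and most of this range lies between organs. Over the 7 lymph nodes alone, Cd3g and Trbc2 correlated at 0.96 and Cd3e and Bcl11b at 0.92, whereas Ptpn22 had negative values with each of the other 8, from -0.24 with Lat to -0.70 with Cd3e. Of 5408 genes compared, those most like the mean of the 9 were Skap1 (r = 0.96), an adaptor of T cells, Cd8b1 (0.94), a chain of the CD8 coreceptor, Tcf7 (0.94) and Lef1 (0.92), transcription factors of T cells, and Cd27 (0.92), a costimulatory receptor. Skap1 ran from 79.1 to 301 UPM in lymph node, 219 to 297 UPM in thymus, 10.4 to 49.9 UPM in spleen and 0 to 120 UPM in blood.

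Other genes of the pathway were counted from lists by role. Between lymph node and blood, 2 of 3 tested receptor chains were higher in lymph node, Trac by 2.67 (SE 0.48, adjusted p = 0.00131) and Trbc1 by 2.43 (SE 0.49), the constant segments of the alpha and beta chains. Of 10 tested coreceptors and costimulators 7 were higher, led by Cd8b1 at 3.12 (SE 0.45, adjusted p = 0.00033), Cd5 at 1.93, Cd6 at 1.90 and Cd27 at 1.77. Of 9 kinases 2 were higher, Prkcq at 2.04 and Fyn at 1.85, and of 13 adaptors 5, among them Skap1 at 2.11, Tespa1 at 1.68, Themis at 1.55 and Grap2 at 1.43. One of 9 downstream genes, Dgkz at 1.76, and 3 of 11 lineage factors, Ikzf1 at 2.12, Tcf7 at 2.01 and Lef1 at 1.98, were higher. Over all genes 12.9% were called higher, a share near those of the kinases and the downstream genes. Of the genes named, Cd8b1, Cd5, Cd27, Prkcq, Fyn, Grap2, Tespa1, Themis and Dgkz had means under 25 UPM in blood and passed the filter through other organs. The filter thus favoured higher values in lymph node, and nothing is read from the counts of these lists. None of these lists had a gene called lower, as 1.81% of all genes were.

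Thymus differed from lymph node in other chains than the CD3 genes. Trdc, the constant segment of the delta chain, was higher in thymus by 4.27 (SE 0.60, adjusted p = 3.44e-05), with 249 and 246 UPM against 0 to 36.5 UPM in lymph node, and it passed the filter through thymus. Trbc1 was higher by 2.67 (SE 0.74, adjusted p = 0.018), at 4200.3 and 3654 UPM. Trac had the opposite sign, -1.75 (SE 0.72, adjusted p = 0.107), with 244 and 77.2 UPM against 402 to 814 UPM. Of the coreceptors Cd8a was higher by 2.80 (SE 0.79) and the inhibitory receptor Btla was at -2.47 (SE 0.76, adjusted p = 0.0321), where 8.14% of all genes were called lower. Sh2d1a, Satb1 and Tcf7 were higher by 3.21, 1.43 and 1.93, Malt1, which links the receptor to NF-kappaB, had -2.88 (SE 0.72, adjusted p = 0.0094), and none of 9 kinases was called.

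Against lymph node, spleen had 1 call in the 6 pathway lists, Cd8b1 at -2.60 (SE 0.67, adjusted p = 0.0362), which passed the filter through the other organs, its spleen levels being under 25 UPM. Between CIA and healthy mice no gene of these lists was called in blood, in lymph node or in the interaction. The smallest p in blood was that of the adaptor Grap, at 74.6 to 119 UPM in healthy mice and listed at 0 in all 3 CIA mice (log2 difference -3.46, SE 0.95, adjusted p = 0.238). Grap passed the filter through the healthy mice alone and could only have come out lower in CIA. In lymph node it was that of Lef1, like Tcf7 a transcription factor of T cells, at 116 to 316 UPM in healthy and 58.6 to 105 UPM in CIA mice (log2 difference -1.19, SE 0.39, adjusted p = 0.999). In the interaction it was again that of Grap (3.18, SE 0.85, adjusted p = 0.393), a value that includes the same 3 blood profiles at 0.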

How the data were processed

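Seq-Well libraries of 8 organs from healthy and CIA mice were compared. Per the labels, the authors' processing used bcl2fastq, STAR and Picard. The builds listed there are GRCh38 and mm9, whereas the study's methods name GRCm38. The authors then smoothed the counts (k-nearest-neighbour smoothing) over neighbouring cells. The deposited signal values are the resulting whole-number sums of UMIs per gene and barcode. They are not raw counts, so no count model, counting interval or floor was used, and the error covers the spread between mice only. Entrez numbers were matched to symbols for 21404 of 23013 genes.

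Libraries of 1 mouse and organ were summed and scaled to 1000000 units (UPM). Python 3.11.15 with pandas 2.3.3 and R 4.3.3 with limma 3.58.1 were used. Genes whose mean reached 25 UPM were fitted by limma as log2(UPM + 10) with a mean-variance trend, and an adjusted p (Benjamini-Hochberg) under 0.05 was a call. With this pseudocount the fold of a low gene comes out too small. Organs were compared over blood, lymph node, spleen and thymus with a state term. Organs with 1 mouse per state were compared by size alone, past 2-fold. The fits were tested on simulated data.

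Blood and lymph node of a mouse were paired as the same animal. The correlations of their deviations from the group means were -0.26 to 0.18 over the 6 mice. Other scalings, pseudocounts, filters, suffix restrictions and left-out mice were tried. The members and the pathway and marker lists were chosen with earlier results of these data known. Besides the 9 members, up to 4 called genes per pathway list, direction and comparison with the smallest p are named (with no call, the 1 with the smallest p over all lists), and the 5 genes whose pattern over the profiles is most like the members. Marker genes are named beside the results they move with.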

Additional observations from a re-analysis of the deposited data

Results flagged for a closer look

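In 2 of the 18 groups of 4 healthy mice examined gene by gene, 1 mouse stood apart from the other 3 by a gap that took up most of the range of the group, where chance alone gives about 1 in 20. In healthy blood, Cd3g was lowest in H4, at 35.1 UPM against 104 to 115 UPM in the other mice, a gap of 0.862 of the range. H4 blood also had the highest sum of red cell markers, 516348 UPM, and with the trimmed-mean scaling Cd3g was at 80.3 in H4 against 84.4 to 118 in the other mice. In healthy lymph node, Ptpn22 was highest in H4, at 158 UPM against 80.7 to 89.6 UPM, a gap of 0.884 of the range.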

How the results depend on the processing

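The mice were few and some blood profiles were thin. In healthy mice alone 0 of the 9 genes were called between lymph node and blood, against 8 with all mice, and over all genes 0.0399% were called against 14.7%. The median difference of the members was 1.61 in healthy mice alone, against 2.39 with all mice. Between thymus and lymph node, 1 gene was called, and 4 with the median-of-ratios scaling (17.1% of all genes called), 2 with no mean-variance trend (9.54%), 7 with only the 2 organs (38.4%) and 0 to 2 when 1 mouse was left out (0.654% to 16.5%; 0 genes without H6 or S1, 2 without H3 or S6), against 12.1% of all genes in the fit reported. Between spleen and lymph node, 0 were called, and 3 with the trimmed-mean scaling (7.05% of all genes called), 1 with the median of ratios (5.58%), 3 with no filter (8.23%), 4 with each library as its own sample (6.85%), 2 with distinct profiles counted once (4.86%), 3 with the suffix as a term (6.39%), 8 with only the 2 organs (16.6%) and 0 to 5 when 1 mouse was left out (0.181% to 5.95%; 5 genes without S6, and 1 without H3 or S2), against 3.31% of all genes. The genes past 2-fold numbered 0 in joint (28.7% of all genes), or 1 with the trimmed-mean scaling (30.4%) or distinct profiles (35.5%), 1 in lung (47.1%), or 2 with distinct profiles counted once (48.9%), and 1 in spleen (36.9%), or 2 with distinct profiles (38.6%). The causes were not tested.

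Values that changed sign were few and none was called. Ptpn22 in blood went from 0.88 to -0.89 with blood profiles of at least 100 barcodes, chosen after seeing the data. In the interaction, Cd247 (0.18) was -1.70 within the suffix 2CIA and -0.35 to 0.83 when 1 mouse was left out. Lat (1.97) was -0.0046 with blood profiles of at least 100 barcodes. Ptpn22 (-0.38) was 0.010 with the trimmed-mean scaling, 0.0071 with the mouse as a replicate block, 1.39 with the larger blood profiles and -1.12 to 0.31 when 1 mouse was left out (0.31 without H3, 0.09 without S6). Ptpn22 between spleen and lymph node (-0.15) was 0.16 with the median of ratios. The mouse block changed no other call of the members than that of Cd247.

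Mouse numbers 6 and 7 occur in both states but name different animals. The correlations of their deviations were 0.19 and -0.12 in blood and 0.05 for number 7 in lymph node. With the number as a replicate block in blood, Cd3d differed by -3.95 (adjusted p = 0.374), and 0 genes of the 9 and 0 of all genes were called, against 16 of all genes without it. No paired analysis was possible for the states in lymph node because they share only the number 7.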
